A study of Mus musculus with 19 samples.

Results

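Described here are 10 mouse genes that are known for holding cells out of the division cycle, measured in embryonic lens, tooth germ and whole body. They are 4 inhibitors of cyclin-dependent kinases (Cdkn1a, Cdkn1b, Cdkn1c and Cdkn2b), the 3 pocket proteins (Rb1, Rbl1 and Rbl2) and 3 growth arrest genes (Gas1, Btg1 and Btg2). The genes were listed by symbol and make up 10 of the 18193 genes that have an array probe set naming only that gene, a probe set being a group of short probes for 1 transcript. In all, 22 probe sets name only 1 of these genes, and the main probe set of a gene is the one with the highest mean log2 level over all arrays. All 10 main probe sets passed the filter on low values and were tested among 13320 genes, and 3 of the 12 other probe sets did not pass it.

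RNA from wild-type ICR mouse embryos was hybridised to 19 Affymetrix arrays, with embryonic days counted from the day of the plug as E0.5. In the lens series there were 3 arrays each of E10.5 lens, E11.5 lens and E12.5 lens, set against whole embryonic body (4 arrays, labelled E10.5 to E12.5). In the tooth series there were 3 arrays of E13.5 tooth germ, set against whole body (3 arrays, labelled E11.5 to E13.5). No embryo carried a mutation or received a treatment, and the purpose stated for the series was to find lens and tooth genes that stand above the body. Nothing in the labels says whether the arrays of a group are separate litters, so a p-value covers only the array-to-array spread, whose estimate rests on few arrays.

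Cyclin-dependent kinases drive a cell through division by phosphorylating the pocket proteins, which otherwise bind E2F transcription factors and keep their target genes silent. Cip/Kip inhibitors (p21, p27 and p57, from Cdkn1a, Cdkn1b and Cdkn1c) bind complexes of cyclins and kinases, and INK4 inhibitors (p15 from Cdkn2b) bind the kinases that cyclin D uses. In the mouse lens vesicle the cells at the back stop dividing and lengthen into primary fibres, the cells at the front stay as a dividing epithelium, and p27, p57 and Rb are known to be needed for the fibre cells to stop.

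Stretches of promoter are shown for the genes whose levels the results turn on, where a known regulatory word stands near the start. Windows from 250 bases before to 50 after a RefSeq transcript start (GRCm38.p6) were at hand for 8 of the 10 genes, with 2 starts for Cdkn1a. Each stretch is printed 5′ to 3′ on the gene's strand with 50 bases on each side of the capitals, ending at the start where that is nearer. Cdkn2b, the gene with the largest change over the lens stages, holds the cyclic AMP response element TGACGTCA (capitals) 46 to 39 bases before its start at chr4:89311033-89311128 on the minus strand, and Btg2 holds the same word 166 to 159 bases before its start at chr1:134079264-134079371 on the minus strand. Rbl1, which changed in the opposite direction to the other pocket proteins, holds the E2F word TTTCGCGC (capitals) 18 to 11 bases before its start at chr2:157204535-157204602 on the minus strand. Cdkn1a holds a pair of p53 half-site cores (capitals; ACATGTC and its reverse complement) 49 to 34 bases before the upstream of its 2 starts at chr17:29090880-29090978 on the plus strand.
Cdkn2b: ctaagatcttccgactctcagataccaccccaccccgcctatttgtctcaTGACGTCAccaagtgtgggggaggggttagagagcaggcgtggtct
Btg2: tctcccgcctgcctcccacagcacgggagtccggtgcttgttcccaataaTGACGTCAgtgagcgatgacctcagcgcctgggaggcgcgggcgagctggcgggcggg
Rbl1: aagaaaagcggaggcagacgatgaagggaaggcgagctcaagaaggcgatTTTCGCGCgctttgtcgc
Cdkn1a: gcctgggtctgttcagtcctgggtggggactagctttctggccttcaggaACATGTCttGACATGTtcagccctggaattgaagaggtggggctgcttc
The 250 bases before each start were searched on both strands. TGACGTCA stood there in 1.55% of 32851 windows over all genes. An E2F word (any of TTTCCCGC, TTTCGCGC, TTTGCCGC and TTTGGCGC) stood in 1.86% of the windows, and at least 2 matches of the p53 half-site core stood in 0.201%. The CCAAT box (CCAAT) stood in the windows of Cdkn1b, Gas1, Btg1 and Btg2 and in 33.8% of all windows, the GC box (GGGCGG) in those of Cdkn1a, Cdkn1b, Rbl1, Gas1, Btg1 and Btg2 and in 32.7%, and the CHR element (TTTGAA) in those of Cdkn2b and Rbl2 and in 16.0%. None of the capitals overlaps another of these words. A match describes the letters only.

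Some arrays stand apart, which touches the results below. In the lens series, bacterial hybridisation controls, which carry no mouse sequence, were high on 6 arrays (mean log2 level 11.40 to 12.66) and low on 7 (9.88 to 10.56). The high set held 2 arrays of E10.5 lens, 1 of E11.5, 1 of E12.5 and 2 of body. The low set held 1, 2, 2 and 2 in that order. A difference within 1 set can thus rest on 1 array of a lens stage. In the tooth series these controls read 10.54 to 10.87 in tooth germ and 8.55 to 9.36 in body, so this split and the tissue cannot be told apart. The 3′ probe set of actin exceeded the 5′ one by 0.21 to 0.48 log2 in the lens series and by 4.22 to 5.05 in the tooth series, so levels are not compared like for like between the series. Within the tooth series this excess was 4.78 to 5.05 in tooth germ and 4.22 to 4.47 in body. The same measure for Gapdh was 2.82 to 3.13 in tooth germ and 3.84 to 4.08 in body. This bias and the tissue cannot be told apart there. Lens markers were high in lens. Cryaa, an abundant lens crystallin, averaged 13.06, 14.15 and 14.39 in E10.5, E11.5 and E12.5 lens, against 5.02 in body. Lens held little signal of neurons, muscle and liver, whose 6 markers each summed to at most 185, 182 and 172 linear units, against at least 7102, 9055 and 11510 in the body. Signal of some other cell types was present. Erythroid markers summed to 8602 to 24945 in lens, against 27905 to 30290 in body, and macrophage markers to 1050 to 1996, against 880 to 1197. Pigment cell markers summed to 748 to 916 in E11.5 lens, against 201 to 233 in body.

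Over the lens stages 6 of the 10 genes rose between E10.5 and E12.5 and 2 fell, beside 22.1% of all genes tested that were called in either direction (8.91% higher, 13.2% lower). A gene is called where limma's two-sided test has a Benjamini-Hochberg adjusted p under 0.05 over all 13320 genes. Cdkn2b, Rb1, Cdkn1c, Btg2, Rbl2 and Cdkn1a rose, Gas1 and Rbl1 fell, and the 2 groups of arrays did not overlap for any of these 8, as for 38.3% of all genes. The median difference over the 10 genes was 1.07 log2, beside -0.01 over all genes tested. Over the first day 2 genes rose and none fell, beside 4.26% of all genes called (1.52% higher, 2.74% lower). Over the second day 2 rose and 1 fell, beside 6.46% called (3.02% higher, 3.45% lower). By its main probe set no gene of the 10 had a second step that differed from its first by limma's test, at the adjusted or at an unadjusted threshold of 0.05, beside 0.45% of all genes called. At the adjusted threshold no other probe set was called there either. The largest differences were those of the second Gas1 one (-1.39 ± 0.37, adjusted p = 0.197) and the third Btg1 one (0.83 ± 0.38, adjusted p = 0.717). No unadjusted p is given here for these.

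Set against the body, 6 of the genes were called lower and none higher in E10.5 lens, beside 32.6% of all genes called (13.5% higher, 19.1% lower). In E11.5 lens 1 was higher and 5 lower than in body, beside 36.9% called (14.7% higher, 22.3% lower). In E12.5 lens 2 were higher and 3 lower, beside 43.3% called (16.6% higher, 26.7% lower). These 3 comparisons share the same 4 body arrays. The share of the 10 genes called in each is above that of all genes at E10.5 and E11.5 and near it at E12.5, over 10 genes only.

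**Figure D1:**
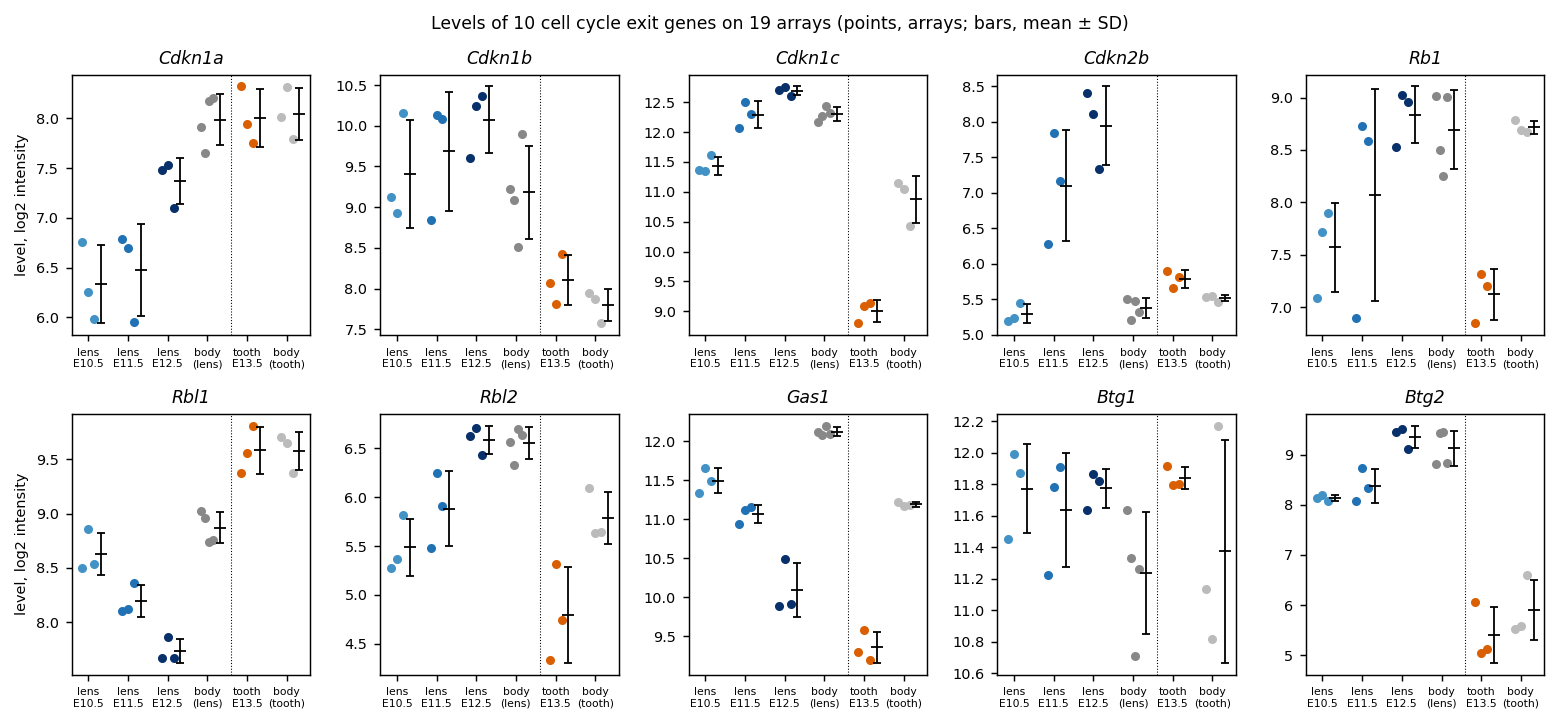
Level of each of the 10 genes (log2 intensity, vertical axes, main probe set) on the 19 arrays, by group along the horizontal axes; points are arrays, bars give the mean ± SD, and the dotted line separates the lens series from the tooth series. Cdkn2b stands at 5.20 to 5.45 in E10.5 lens and at 7.33 to 8.40 in E12.5 lens, while Gas1 and Rbl1 are lowest within the lens series in E12.5 lens.

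Cdkn2b, whose product p15 binds CDK4 and CDK6, changed the most. Its levels were 5.20, 5.24 and 5.45 in E10.5 lens, 6.28, 7.84 and 7.16 in E11.5 lens and 8.40, 8.11 and 7.33 in E12.5 lens, against 5.51, 5.21, 5.47 and 5.33 in whole body. E10.5 lens thus overlapped the body, every E11.5 and E12.5 array stood above every body array, and the 2 later stages overlapped each other.

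Between E10.5 and E12.5 lens Cdkn2b rose by 2.65 ± 0.28 log2 (SE; adjusted p = 1.83e-06), which is 6.27-fold. The first day carried a called rise of 1.80 ± 0.28 (adjusted p = 0.000768), and the second day a difference of 0.85 ± 0.28 that did not pass the test (adjusted p = 0.088). The second-day difference passed the test without E11.5 replicate 2, the highest array of its stage (1.22, adjusted p = 0.00623), and without E12.5 replicate 3, the lowest of its stage (1.16, adjusted p = 0.0302). It also passed with arrays centred on their medians (0.87, adjusted p = 0.0381). Within the high control set, which held 1 array of E11.5 and 1 of E12.5 lens, it was 2.12. The step of the second day minus that of the first was -0.95 ± 0.49 (adjusted p = 0.753), so the steps were not shown to differ. Against the body, Cdkn2b was higher by 1.72 ± 0.26 in E11.5 lens (adjusted p = 3.44e-05) and by 2.57 ± 0.26 in E12.5 lens (adjusted p = 1.63e-07). The E10.5 lens and body levels lie near the filter value of 5.46 log2, so the size of a rise that starts there is less certain than its direction. In the fit on E10.5 and E11.5 lens alone, which called 56 of all 13320 genes, the first-day difference had an adjusted p of 0.104.

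Other INK4 inhibitors did not change in the same way in the lens. Of Cdkn2a, Cdkn2c and Cdkn2d, the last 2 passed the filter and neither was called between E12.5 and E10.5 lens. Cdkn2c, which encodes p18, averaged 7.47 in E12.5 lens and 7.70 in E10.5 lens, a difference of -0.23 ± 0.16 (adjusted p = 0.365). Cdkn2d, which encodes p19, averaged 8.77 and 8.43 in the same order, a difference of 0.34 ± 0.20 (adjusted p = 0.269).

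Cdkn1c encodes p57, a Cip/Kip inhibitor that is made from the maternal copy of the gene. It read 11.36, 11.34 and 11.61 in E10.5 lens, 12.06, 12.51 and 12.30 in E11.5 lens and 12.70, 12.76 and 12.61 in E12.5 lens, against 12.17, 12.28, 12.44 and 12.32 in whole body. Each stage stood above the one before it with no overlap, E11.5 lens overlapped the body, and E12.5 lens stood above the body.

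The rise of Cdkn1c was 0.85 ± 0.17 over the first day (adjusted p = 0.00704) and 1.25 ± 0.17 from E10.5 to E12.5 (adjusted p = 2.8e-05; 2.38-fold). The first-day call was lost in a fit on E10.5 and E11.5 lens alone (adjusted p = 0.109), which called 56 of all 13320 genes. It was also lost within the high control set (0.71, with 1 E11.5 array) and the low one (0.80, with 1 E10.5 array). E10.5 lens was lower than body (-0.87 ± 0.16, adjusted p = 0.000313). The E12.5 lens differed from body by 0.39 ± 0.16, which did not pass the test (adjusted p = 0.0621) although the groups did not overlap. That difference passed under 8 other settings, among them each array centred on its median (0.53, adjusted p = 0.00271).

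Cdkn1a encodes p21, which p53 induces. It read 6.76, 6.26 and 5.98 in E10.5 lens, 6.79, 6.70 and 5.95 in E11.5 lens and 7.48, 7.53 and 7.10 in E12.5 lens, against 7.91, 7.65, 8.17 and 8.21 in whole body. The 2 earlier stages overlapped, E12.5 lens stood above both, and every lens array was below every body array.

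Cdkn1a had its called step on the second day, at 0.89 ± 0.24 (adjusted p = 0.0312), with 0.15 ± 0.24 on the first (adjusted p = 0.824), but the 2 steps were not shown to differ (0.74 ± 0.42, adjusted p = 0.792). The second-day call was lost without any 1 of E11.5 replicate 3 and E12.5 replicates 1 and 2 (adjusted p 0.163, 0.0937 and 0.12), and within either set of control signal. From E10.5 to E12.5 the gene rose by 1.04 ± 0.24, or 2.05-fold (adjusted p = 0.00368). Within the arrays of high control signal, with 1 E12.5 array, it rose by 0.97 and the call was lost. It was lower than body at every stage, with differences of -1.66 ± 0.23 in E10.5 lens (adjusted p = 8.14e-06), -1.51 ± 0.23 in E11.5 lens (adjusted p = 2.43e-05) and -0.62 ± 0.23 in E12.5 lens (adjusted p = 0.0324). The last of these was lost when each array was centred on its median (-0.48, adjusted p = 0.102) and without any 1 of E12.5 lens replicate 3 and body replicates 3 and 4 (adjusted p 0.149, 0.0776 and 0.0829). Its other probe set also rose from E10.5 to E12.5 (0.75 ± 0.24, adjusted p = 0.0307), but there neither the second day (0.36, adjusted p = 0.534) nor E12.5 lens minus body (-0.52, adjusted p = 0.0724) was called.

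Cdkn1b encodes p27, the Cip/Kip inhibitor that the ubiquitin ligase of Skp2 marks for breakdown. Its levels were 9.13, 8.93 and 10.16 in E10.5 lens, 8.84, 10.13 and 10.09 in E11.5 lens and 9.60, 10.25 and 10.37 in E12.5 lens, against 9.22, 9.09, 8.51 and 9.90 in whole body. Every group overlapped its neighbours, and the spread within a stage was wider than the distance between stages.

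That spread followed the bacterial control signal. Across the lens series, Cdkn1b was lower on the arrays with high control signal than on those with low signal (-0.94 ± 0.14, adjusted p = 0.00126), in a comparison that called 24.2% of all genes. Lens arrays with high signal read 8.84 to 9.60 and lens arrays with low signal 10.09 to 10.37. The cause of the split was not tested.

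Between E12.5 and E10.5 lens the Cdkn1b difference was 0.67 ± 0.37 (adjusted p = 0.224), and it was not called for either day. E11.5 lens differed from body by 0.50 ± 0.35 (adjusted p = 0.281), and by 0.93 without E11.5 replicate 1, which passed (adjusted p = 0.038). E12.5 lens was called higher than body by 0.89 ± 0.35 (adjusted p = 0.044), with overlapping arrays. This call was lost with no filter on low probe sets (adjusted p = 0.0537) and within the arrays of high control signal (0.80, with 1 E12.5 array). It was also lost without any 1 of 5 arrays, E12.5 lens replicates 2 and 3 and body replicates 1, 2 and 3 (adjusted p 0.0676 to 0.156). The second probe set of Cdkn1b, at 3.498 to 6.15 log2, gave a difference of -0.01 there.

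**Figure D2:**
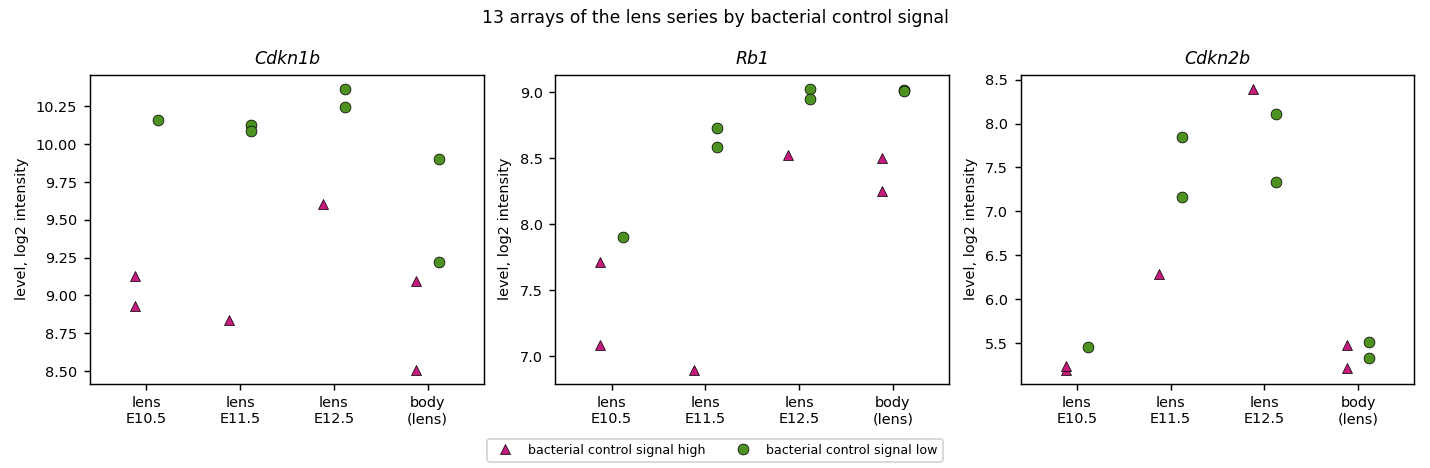
Levels of Cdkn1b, Rb1 and Cdkn2b (log2 intensity, vertical axes) on the 13 arrays of the lens series by group, with triangles for arrays of high and circles for arrays of low bacterial control signal. For Cdkn1b and Rb1 every triangle lies below every circle of its own group. For Cdkn2b the triangles lie below the circles in E10.5 and E11.5 lens and above them in E12.5 lens, and the symbols mix in body.

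Rb1, the founding pocket protein and a tumour suppressor, read 7.09, 7.72 and 7.90 in E10.5 lens, 6.90, 8.73 and 8.58 in E11.5 lens and 8.53, 9.03 and 8.95 in E12.5 lens, against 9.02, 8.50, 8.25 and 9.01 in whole body. E12.5 lens stood above E10.5 lens without overlap, and E11.5 replicate 1 lay below every E10.5 array. Like Cdkn1b, Rb1 was lower on arrays of high control signal (-0.81 ± 0.17, adjusted p = 0.00652).

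From E10.5 to E12.5 lens Rb1 rose by 1.27 ± 0.35 (adjusted p = 0.0123; 2.41-fold), and it was lower in E10.5 lens than in body (-1.12 ± 0.33, adjusted p = 0.0115). Both calls were lost without E10.5 replicate 1 (1.03, adjusted p = 0.0756, and -0.88, adjusted p = 0.0832) and both held with the control set as a block. Without E11.5 replicate 1 the first-day difference was 1.09 and was called (adjusted p = 0.0122), against 0.50 with it (adjusted p = 0.512). E11.5 lens differed from body by -0.62 ± 0.33 (adjusted p = 0.149). That difference passed without E11.5 replicate 2 (-0.95, adjusted p = 0.036) and with the control set as a block (-0.76, adjusted p = 0.0164). Within the high control set, with 1 E11.5 and 1 E12.5 lens array, it was -1.48, and the second-day difference of 0.77 became 1.63. The other Rb1 probe set stayed at 3.22 to 4.54 on all arrays and was not tested.

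Rbl2 encodes p130, the pocket protein typical of resting cells. It read 5.27, 5.36 and 5.82 in E10.5 lens, 5.48, 6.25 and 5.91 in E11.5 lens and 6.62, 6.71 and 6.43 in E12.5 lens, against 6.56, 6.33, 6.70 and 6.63 in whole body. E12.5 lens overlapped the body and stood above both earlier stages, which overlapped each other and were below the body. Only 1 of the 3 E10.5 arrays exceeded the filter value of 5.46 log2, and on the second probe set no E10.5 array did. The size of a rise that starts there is less certain than its direction.

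Rbl2 rose by 1.10 ± 0.23 from E10.5 to E12.5 lens (adjusted p = 0.00159; 2.14-fold). It was lower than body in E10.5 lens (-1.07 ± 0.22, adjusted p = 0.000639) and in E11.5 lens (-0.67 ± 0.22, adjusted p = 0.0193), and E12.5 lens differed from body by 0.03 ± 0.22 (adjusted p = 0.921). The second probe set also rose from E10.5 to E12.5, by 0.62 ± 0.18 (adjusted p = 0.0179), but it gave no call for E11.5 lens minus body (-0.28, adjusted p = 0.213). Without E11.5 replicate 1 the E11.5 call was lost (-0.47, adjusted p = 0.118), and without E11.5 replicate 2 the second-day difference of 0.71 became 0.89 and passed (adjusted p = 0.0343). That difference also passed with arrays centred (adjusted p = 0.035), with an offset of 32 (adjusted p = 0.0469) and with the control set as a block (adjusted p = 0.0181).

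Rbl1 encodes p107, a pocket protein that is itself made in dividing cells and is known as an E2F target. Its levels were 8.50, 8.85 and 8.54 in E10.5 lens, 8.10, 8.12 and 8.36 in E11.5 lens and 7.67, 7.86 and 7.67 in E12.5 lens, against 9.03, 8.96, 8.74 and 8.75 in whole body. Each stage lay below the one before it without overlap, and E10.5 lens overlapped the body.

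Rbl1 fell by 0.89 ± 0.15 log2 from E10.5 to E12.5 lens (difference -0.89, adjusted p = 0.000208), with neither day called alone (-0.43, adjusted p = 0.128, then -0.46, adjusted p = 0.0828). It was lower than body in E11.5 lens (-0.67 ± 0.14, adjusted p = 0.000831) and in E12.5 lens (-1.13 ± 0.14, adjusted p = 1.92e-06). The second tested probe set differed by -0.71 ± 0.25 between E12.5 and E10.5 lens, just short of the call (adjusted p = 0.0521), and by -0.17 between E11.5 lens and body (adjusted p = 0.636). So among the pocket proteins 2 rose, Rb1 and Rbl2, and 1 fell.

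Gas1 encodes a membrane protein that arrests growth in fibroblasts and also binds Sonic hedgehog as a co-receptor. It read 11.34, 11.66 and 11.49 in E10.5 lens, 10.94, 11.12 and 11.16 in E11.5 lens and 9.89, 10.497 and 9.91 in E12.5 lens, against 12.12, 12.08, 12.20 and 12.10 in whole body. No group overlapped another, and the order was body, E10.5, E11.5 and E12.5 lens from high to low.

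The fall of Gas1 was -0.97 ± 0.16 on the second day (adjusted p = 0.000641) and -1.40 ± 0.16 from E10.5 to E12.5 (adjusted p = 2.87e-06). Its difference from body was -0.63 ± 0.15 in E10.5 lens (adjusted p = 0.00215), -1.05 ± 0.15 in E11.5 lens (adjusted p = 9.77e-06) and -2.03 ± 0.15 in E12.5 lens (adjusted p = 1.04e-09; 4.07-fold lower). A second probe set fell by 1.11 ± 0.22 log2 from E10.5 to E12.5 (adjusted p = 0.000999), though not on the first day (0.14 ± 0.22, adjusted p = 0.826). The third, at 5.82 to 7.02 log2, differed by 0.03 ± 0.29 between E12.5 and E10.5 lens (adjusted p = 0.966). It was not called for any lens stage against body. The second-day call was lost in a fit on E11.5 and E12.5 lens alone (adjusted p = 0.0771), which called 139 of all 13320 genes. It was also lost within the high control set, with 1 array per stage. The call of E10.5 lens minus body was lost within the low set, with 1 lens array.

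Btg2, an antiproliferative gene that p53 and growth factors induce early, read 8.14, 8.19 and 8.08 in E10.5 lens, 8.07, 8.74 and 8.33 in E11.5 lens and 9.46, 9.52 and 9.11 in E12.5 lens, against 8.82, 9.43, 9.45 and 8.83 in whole body. E12.5 lens overlapped the body, and both earlier stages lay below both.

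Between E10.5 and E12.5 lens Btg2 rose by 1.22 ± 0.29 (adjusted p = 0.00415; 2.33-fold), with a second-day step of 0.98 ± 0.29 (adjusted p = 0.048). That step was lost with the replicate number as a block over all arrays (adjusted p = 0.0724), though not with that block over the 9 lens arrays alone (adjusted p = 0.0126), and it was lost without any 1 of E11.5 replicates 1 and 3 and E12.5 replicates 1, 2 and 3 (0.83 to 1.11, adjusted p 0.0776 to 0.158). The other probe set put the called step on the first day, at 1.06 ± 0.21 (adjusted p = 0.00632), with 0.53 ± 0.21 on the second (adjusted p = 0.181), and rose by 1.59 ± 0.21 in all (adjusted p = 2e-05). Btg2 was lower than body in E10.5 lens (-0.99 ± 0.27, adjusted p = 0.00741) and in E11.5 lens (-0.75 ± 0.27, adjusted p = 0.0351), and the second of these was lost within the arrays of low control signal (-0.29, adjusted p = 0.263) and without any 1 of E11.5 replicates 1 and 3 and body replicates 2 and 3 (adjusted p 0.082 to 0.138). The other probe set gave -0.05 for E11.5 lens minus body (adjusted p = 0.885).

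Btg1, the close relative of Btg2, read 11.45, 11.99 and 11.87 in E10.5 lens, 11.22, 11.78 and 11.91 in E11.5 lens and 11.64, 11.86 and 11.82 in E12.5 lens, against 11.64, 11.33, 10.71 and 11.26 in whole body. All groups overlapped, and no comparison called this probe set in the fit of all 19 arrays. Between E12.5 and E10.5 lens the difference was 0.00 ± 0.28, and E12.5 lens differed from body by 0.54 ± 0.26 (adjusted p = 0.107). The E12.5 difference from body passed with arrays centred (0.68, adjusted p = 0.0478), in a fit on those groups alone (adjusted p = 0.0453) and with the control set as a block (0.48, adjusted p = 0.0372).

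The other Btg1 probe sets gave another picture. The second one read 11.89 to 12.25 in the 9 lens arrays, against 10.99 to 11.53 in the body, and was called higher than body at E10.5 (0.77 ± 0.14, adjusted p = 0.000306), E11.5 (0.87 ± 0.14, adjusted p = 8.5e-05) and E12.5 (0.66 ± 0.14, adjusted p = 0.00103). The third one was higher than body by 2.24 ± 0.20 in E10.5 lens (adjusted p = 4.23e-08) and by 1.05 ± 0.20 in E12.5 lens (adjusted p = 0.000347), and it fell by 1.20 ± 0.22 log2 between these stages (adjusted p = 0.000508). Whether Btg1 stands above the body thus depends on the probe set, and the 3 share only the sign of the difference.

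**Figure D3:**
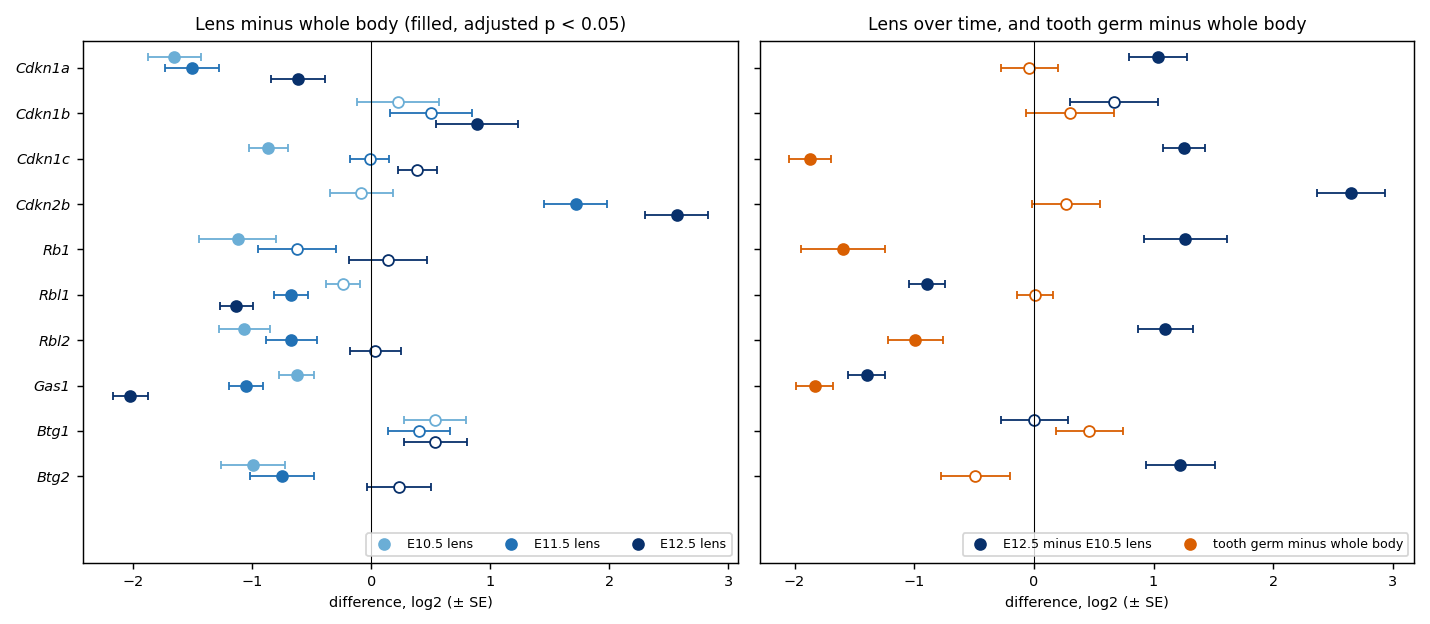
Differences (log2, ± SE of the fit) of the 10 genes, with lens at 3 stages minus whole body on the left, and E12.5 minus E10.5 lens and tooth germ minus whole body on the right; filled points passed the test at an adjusted p under 0.05. By these main probe sets Cdkn2b is the only gene over 1.5 log2 above the body, and Cdkn1c, Rb1 and Rbl2 are lower than body in tooth germ while they rose over the lens stages.

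In the tooth germ, by main probe sets, 4 of the genes were lower than in the tooth-series body and none was higher, beside 41.9% of all genes called in either direction (16.6% higher, 25.3% lower). Cdkn1c read 8.80, 9.09 and 9.13 in tooth germ, against 11.15, 11.05 and 10.42 in body, a difference of -1.87 ± 0.17 (adjusted p = 9.1e-08). Gas1 read 9.30, 9.58 and 9.20 in tooth germ, against 11.23, 11.17 and 11.18 in body, a difference of -1.83 ± 0.16 (adjusted p = 2.69e-08). The tooth germ arrays lay below all body arrays for both genes.

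Rb1 read 6.85, 7.32 and 7.21 in tooth germ, against 8.79, 8.69 and 8.67 in body, a difference of -1.60 ± 0.35 (adjusted p = 0.00116). Rbl2 read 4.34, 5.31 and 4.74 in tooth germ, against 6.09, 5.63 and 5.64 in body, a difference of -0.99 ± 0.23 (adjusted p = 0.00194). Neither pair of groups overlapped, but the second Rbl2 probe set gave 0.18 ± 0.18 with the sign turned (adjusted p = 0.457).

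For the remaining genes the tooth germ and body values were close or spread. Rbl1 averaged 9.58 in both tooth germ and body (0.01 ± 0.15), and Cdkn1a averaged 8.004 in tooth germ and 8.04 in body (-0.04 ± 0.24). Cdkn2b read 5.89, 5.65 and 5.81 in tooth germ, against 5.54, 5.55 and 5.47 in body, without overlap but with a difference of 0.27 ± 0.28 that was not called (adjusted p = 0.467). Btg2 differed by -0.49 ± 0.29 (adjusted p = 0.185), and its other probe set, at 6.69 to 7.16 in tooth germ and 7.60 to 7.75 in body, was called lower (-0.73 ± 0.21, adjusted p = 0.00896). Without tooth germ replicate 1 the main Btg2 probe set was called too (-0.81, adjusted p = 0.0332). Btg1 differed by 0.46 ± 0.28 (adjusted p = 0.195), and by 0.86, which passed the test, without body replicate 3 (adjusted p = 0.00921). Both other Btg1 probe sets were called higher in tooth germ (0.62 ± 0.15, adjusted p = 0.00333, and 0.86 ± 0.22, adjusted p = 0.0042). Cdkn1b differed by 0.30 ± 0.37 (adjusted p = 0.535).

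The E12.5 lens difference from its body and the tooth germ difference from its own body were then set against each other in the same fit, which called 39.6% of all genes (19.2% higher, 20.4% lower). Of the 10 genes, 4 had a higher difference in lens than in tooth: Cdkn2b (2.30 ± 0.39, adjusted p = 0.000106), Cdkn1c (2.26 ± 0.24, adjusted p = 4.99e-07), Rb1 (1.74 ± 0.48, adjusted p = 0.00692) and Rbl2 (1.02 ± 0.32, adjusted p = 0.0145). Rbl1 had a lower one (-1.14 ± 0.21, adjusted p = 0.000219), which its second tested probe set did not pass (-0.79, adjusted p = 0.0815). The Rbl2 value is -0.20 with its second probe set, and the call was lost without tooth germ replicate 1 (0.79, adjusted p = 0.0515). Btg2 differed by 0.72 ± 0.39 (adjusted p = 0.16), and by 1.04 without that array, which passed (adjusted p = 0.0352). The other Btg2 probe set was called (1.22 ± 0.29, adjusted p = 0.00231), and so was the other one of Cdkn1a (-0.96 ± 0.33, adjusted p = 0.0268). Gas1, low in both tissues, differed by -0.19 ± 0.21 (adjusted p = 0.506), and by -1.03 with its second probe set, which was called (adjusted p = 0.0101).

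Between the 2 sets of whole bodies, later against earlier, 63.6% of all genes were called (31.8% higher, 31.8% lower), and so were 6 of these. Rbl1 was higher in the tooth-series bodies by 0.71 ± 0.14 (adjusted p = 0.000246), while Btg2, Cdkn1c, Cdkn1b, Gas1 and Rbl2 were lower. Btg2 averaged 5.90 in tooth-series bodies and 9.13 in lens-series bodies (-3.23 ± 0.27, adjusted p = 6.57e-09), but its other probe set differed by -0.12 (adjusted p = 0.597), and the second Rbl1 probe set by 0.11 (adjusted p = 0.69). The other Cdkn1a probe set was called lower (-1.54 ± 0.22, adjusted p = 6.52e-06), and the other Btg1 ones were called in opposite directions (-0.98, adjusted p = 6.99e-06, and 1.55, adjusted p = 1.93e-06). Stage, series and the 3′ bias given above cannot be told apart here.

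Tissue markers moved along with these genes. All 6 surface ectoderm markers fell between E10.5 and E12.5 lens (median difference -4.01), and their summed linear level was 6312 to 8529 in E10.5, 2200 to 2632 in E11.5 and 1404 to 1628 in E12.5 lens. Of 7 lens markers 4 rose and none fell, with sums of 13118 to 27689, 25127 to 30047 and 34884 to 36005 in the same order of stages. Of 7 mesenchyme markers 4 rose and 2 fell, and their sums were 4329 to 5201, 6848 to 7805 and 5167 to 6459, against 20012 to 23245 in body. Gas1 and the mesenchyme sum were both higher in the lens-series body than in lens. In tooth germ Gas1 was lower than in body, and the mesenchyme sum was 12178 to 15101, against 9827 to 12156 in body. Of the 7 mesenchyme markers 2 were called higher and 1 lower in tooth germ than in body, with a median difference of 0.10 log2. In tooth germ the surface ectoderm sum was 8026 to 9984, against 2427 to 2666 in its body, and the neuron sum was 205 to 423, against 4578 to 5448. The part of these cell types in the differences was not tested, and in such whole-tissue RNA fewer cells of a type and less RNA per cell cannot be told apart.

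The partners of the 10 genes were read from lists chosen, like the genes, with earlier results of these arrays known, and each is set beside the same 22.1% of all genes called between E12.5 and E10.5 lens. Among cyclin D and its kinases, the targets of INK4 inhibitors, 2 of 5 rose and 2 fell. Ccnd2 rose by 0.65 ± 0.15 (adjusted p = 0.00317) and Ccnd3 by 0.51 ± 0.16 (adjusted p = 0.0295), while Cdk6 fell by 0.85 ± 0.16 log2 (adjusted p = 0.000531) and Cdk4 fell by 0.39 ± 0.13 log2 (adjusted p = 0.0361). Both kinases that p15 binds were thus lower at E12.5, where Cdkn2b was higher.

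Among cyclin E, cyclin A, CDK2 and its activator Cdc25a, which Cip/Kip inhibitors oppose, 4 of 5 fell and none rose (median -1.02). Cdc25a fell by 1.17 ± 0.15 log2 (adjusted p = 1.76e-05) and Cdk2 fell by 1.12 ± 0.19 log2 (adjusted p = 0.000192). Of 7 genes for the turnover of p27, 3 fell and none rose, led by Skp2, the F-box protein that recognises p27 (-1.09 ± 0.21, adjusted p = 0.000803), followed by Cks1b (-0.53) and Cul1 (-0.46).

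Of the 10 E2F and DP factors that pocket proteins bind or that share their targets, 1 rose and 3 fell. E2f7 and E2f8, repressors made in S phase, fell (-1.69 ± 0.21, adjusted p = 7.54e-06, and -1.45 ± 0.19, adjusted p = 1.89e-05), Tfdp1 fell by 0.52 ± 0.13 log2, and E2f5, a partner of p130, rose by 0.57 ± 0.16 (adjusted p = 0.0136). MuvB forms a repressor complex with p130 or p107, and an activating one with Mybl2 or Foxm1. Of 7 genes for MuvB subunits and these activating partners only Mybl2 was called, and it fell by 1.09 ± 0.26 log2 (adjusted p = 0.00486). All 11 tested proliferation markers fell (median -1.44), led by Aurka (-1.82 ± 0.18), Bub1 (-1.70 ± 0.14), Mki67 (-1.66 ± 0.27) and Mcm5 (-1.53 ± 0.15). The adjusted p of these 4 lay between 1.57e-07 and 0.000156.

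Among BTG/TOB relatives and their deadenylase partners 1 of 4 rose, 1 fell and 2 were not called. Tob1, an antiproliferative relative of Btg1 and Btg2, averaged 10.90 in E12.5 lens and 8.84 in E10.5 lens, a rise of 2.06 ± 0.53 (adjusted p = 0.00763), and Cnot7, a deadenylase subunit, fell by 0.47 ± 0.15 log2 (adjusted p = 0.0253). Of 8 tested genes of the p53 group, 1 rose (Sesn1, 0.52 ± 0.18, adjusted p = 0.0462) and 1 fell (Plk2, -0.79 ± 0.15, adjusted p = 0.000711), beside the rise of the p53 targets Cdkn1a and Btg2.

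Of 11 Hedgehog pathway genes 1 rose and 4 fell. Gli1, a target and effector of the pathway, averaged 5.33 in E12.5 lens and 6.89 in E10.5 lens (-1.56 ± 0.28, adjusted p = 0.000353). Its E12.5 level lies under the filter value of 5.46. Ptch1, outside the naming rule given below, was not called (0.37 ± 0.21, adjusted p = 0.238). Cdon, a co-receptor like Gas1, fell by 1.51 ± 0.22 log2 (adjusted p = 5.12e-05). Gli3 fell by 0.67 ± 0.16 log2 (adjusted p = 0.0041), and Sufu, an inhibitor, rose by 0.65 ± 0.22 (adjusted p = 0.0374). Of 7 tested immediate early genes, the class to which Btg2 is also counted, Jun rose by 1.46 ± 0.26 (adjusted p = 0.000366), Dusp1 rose by 0.99 ± 0.29 (adjusted p = 0.0193), and Ier2 fell by 1.13 ± 0.18 log2 (adjusted p = 0.000129).

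**Figure D4:**
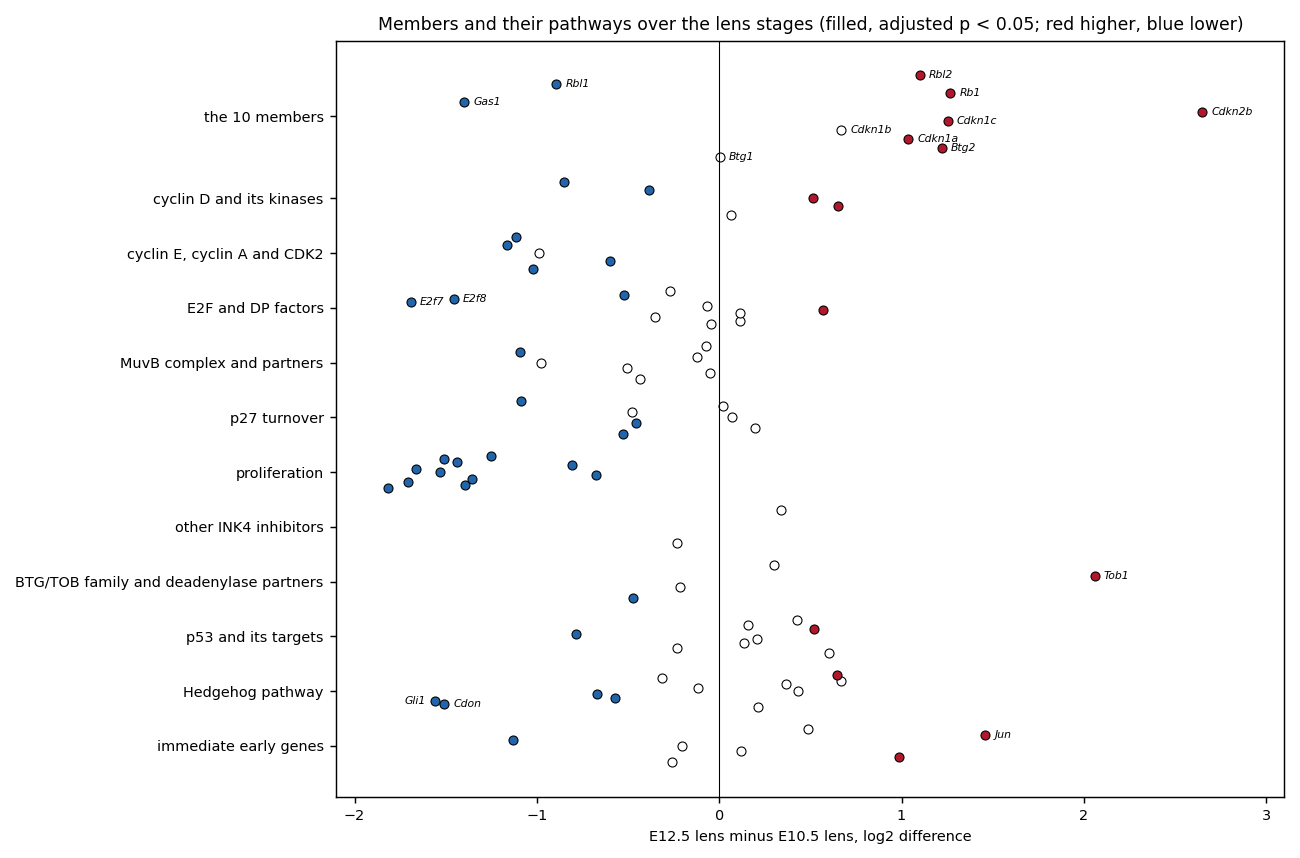
Difference of E12.5 minus E10.5 lens (log2, horizontal axis) for the 10 genes and for each tested gene of the partner lists; filled points passed the test at an adjusted p under 0.05, red higher and blue lower in E12.5 lens. All 11 proliferation markers lie on the lower side, and Cdkn2b lies farthest to the higher side.

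The genes whose levels ran most like those of the 10 were sought over all 19 arrays by Pearson correlation of log2 levels, as a description over 6 groups that share tissue and series. For Cdkn2b these were Ank (r = 0.94), Bfsp2 (0.93), a beaded filament protein of lens fibres, Efcab1 (0.92), Zfp365 (0.91) and Trpc6 (0.91), a search added after its values were seen. For Cdkn1c they were Vim (0.97), an intermediate filament, Map4k5 (0.97), Rraga (0.96), Ndufs3 (0.96) and Gpx1 (0.96). For Rbl1 they were Cdk2ap1 (0.98), Frrs1 (0.97), Cbfb (0.97), Cdt1 (0.97), which licenses replication origins, and Sass6 (0.97), a centriole protein. For Rbl2 they were Ckb (0.95), Cyfip2 (0.94), Jun (0.93), Itprid2 (0.92) and Ncoa4 (0.92), and for Gas1 Slbp (0.96), a histone mRNA binding protein, Rfc4 (0.96), a clamp loader subunit, Otx2 (0.95), Rnd3 (0.95) and Tut4 (0.94).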

How the data were processed

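The deposited values are RMA intensity values (a method that corrects background, equalises arrays and sums the probes of a set), 1 per probe set and array, on a linear scale from 5.4 to 25043.5. RMA and version 0.7 of affy are named in the submitters' processing notes, with no role stated. Log2 was taken of the intensity values deposited by the authors, with no further normalization. No 2 arrays shared more than 2.04% of their values exactly. Platform annotation names 1 gene for 34945 of 45101 probe sets, several for 932 and none for 9211 others, and 34741 matched RefSeq (GRCm38.p6) by Entrez ID.

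A gene's main probe set is the one with the highest mean, and it was tested where it exceeded the median of all values (44.1, or 5.46 log2) on at least 3 arrays. limma 3.58.1 (R 4.3.3) was fitted with 1 mean per group over 19 arrays and 10 contrasts, two-sided, with Benjamini-Hochberg adjusted p-values over 13320 genes. Other probe sets were fitted together over all that passed. On simulated arrays for E12.5 minus E10.5 lens (13320 genes), 77% of changes of 1 log2 and 99% of changes of 2 log2 were recovered. The simulated noise was normal and independent between arrays, with 100 genes changed at each size and no split by control signal. The real comparison called 22.1% of all genes, so these rates need not hold for it. Arrays were grouped by title and stage. Replicate numbers come from the titles. The deviations from the group means of all 3 same-numbered pairs of E11.5 and E12.5 lens correlated (0.40 to 0.64). In no other 2 groups did every same-numbered pair exceed 0.1 (for E10.5 lens, 2 of 3 pairs with each later stage). In both later stages replicate 1 was in the high control set and replicates 2 and 3 in the low one. Low-set pairs of unlike number correlated at 0.35 (E11.5 replicate 3 with E12.5 replicate 2) and 0.08 (E11.5 replicate 2 with E12.5 replicate 3). Over all groups, 9 of 45 same-numbered and 25 of 105 other pairs exceeded 0.1, so pairing by number was not shown. The genes and lists were chosen with earlier results of these data known. By rule, the 10 genes are always named, with up to 4 called genes of largest difference per partner list, or 2 where none was called, and the 5 most correlated genes for 4 members. Markers without a probe set naming only them, among them Ccnb1, Btg3 and Trp53, were not analysed here. Alternatives covered the filter, scaling, offset, probe set, variance model, arrays fitted, replicate block, control sets and each array left out, and, added after the data were seen, fits on the 9 lens arrays with and without that block.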

Additional observations from a re-analysis of the deposited data

Results flagged for a closer look

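The differences from body were tested against each other in E12.5 lens and tooth germ. By main probe sets they differed between the tissues for 5 of the 10 genes, beside 39.6% of all genes called. The lens difference minus the tooth germ difference was 2.26 for Cdkn1c, 2.30 for Cdkn2b, 1.74 for Rb1, 1.02 for Rbl2 and -1.14 for Rbl1 (log2). The second Rbl2 probe set gave -0.20, and the second tested Rbl1 one gave -0.79, which was not called (adjusted p = 0.0815). Stage and tissue differ together here, and the arrays of the tooth series carry the stronger 3′ bias, so these cannot be told apart. By main probe sets, the 4 whole-body arrays of the lens series spread most for Cdkn1b (8.51 to 9.90). In E11.5 lens, replicate 1 read 6.90 for Rb1, against 8.73 and 8.58 in replicates 2 and 3.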

How the results depend on the processing

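Of the values of called genes recomputed under the other settings, 841 kept their direction and their side of the threshold, 73 kept the direction only and 6 changed sign. The changes of sign were Rbl2 in tooth germ minus body (0.179 with the probe set of highest variance, which is its second one), Rbl2 in the lens difference minus the tooth difference (-0.20, likewise), Cdkn1b in E12.5 lens minus body (-0.0118 with its second probe set) and Gas1 in E12.5 minus E10.5 lens (0.0305 with its probe set at 5.82 to 7.02 log2). The count of called genes left its range in 4 comparisons. For E12.5 lens minus body it was 3 within the arrays of high control signal. For E11.5 minus E10.5 lens it was 1 with a filter at a mean log2 of 7, 1 within the high set, 1 within the low set and 0 in a fit on those groups alone. For E12.5 minus E11.5 lens it was 0 in a fit on those groups alone, and for the lens difference minus the tooth difference it was 3 with the filter at 7. Over all 13320 genes, the fits on 2 stages alone called 56 for the first day and 139 for the second. The main fit called 568 and 861. The filter at 7 left Cdkn2b and Rbl2 untested, as their main probe sets average 6.13 and 5.89 log2 over all arrays. The cause of the other changes was not tested, and fits within 1 control set leave 1 array at some lens stages. Leaving out 1 array at a time gave 5 to 6 called genes for E10.5, 5 to 7 for E11.5 and 3 to 5 for E12.5 lens minus body, 2 to 3, 1 to 5 and 7 to 8 for the first day, the second day and both, 4 to 5 for tooth germ, 5 for lens minus tooth, 0 for the second step minus the first and 6 for the bodies. Centring arrays gave 4 genes higher and 2 lower than body in E12.5 lens, against 2 and 3. With the replicate number as a block, the second-day count was 2 in place of 3, since Btg2 was lost, and no other call changed. In fits on the 9 lens arrays alone, an alternative chosen after seeing the data, it was 3 with the block and 2 without it, where Cdkn1a was lost (adjusted p = 0.124), and Rb1 was lost between E12.5 and E10.5 without the block (adjusted p = 0.0761). Signal near background limits Cdkn2b in E10.5 lens and body, Rbl2 in E10.5 lens and in tooth germ, and the dim second probe set of Cdkn1b. It also limits the main Btg2 probe set in tooth germ (5.05 to 6.06) and in the tooth-series body (5.52 to 6.59).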
